A study of Cricetiscus sungorus with 216 samples.

Results

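The pituitary gland and the mediobasal hypothalamus (MBH) of the same 54 male Djungarian hamsters were compared, animal by animal, on gene expression measured by nanopore sequencing of cDNA. All 54 pituitary gland libraries and all 54 MBH libraries were used, which is 108 libraries from 2 of the 4 tissues of the series, and each pituitary gland library was set against the MBH library that carries the same animal number. The animals were intact adults from a colony 3 to 8 months of age and received no drug, transgene or other agent. They fall into 9 groups of 6, kept in long photoperiod (LP, 16 hr of light and 8 hr of dark, LD in the labels) or moved to short photoperiod (SP, 8 hr of light and 16 hr of dark, SD in the labels) for 4, 8, 12, 16, 20, 24, 28 or 32 weeks. Pituitary gland tissue was extracted and frozen, and the study does not state whether it was the whole gland. The MBH was taken as bilateral 1 mm punches from coronal brain sections. Each library is thus a mix of all cell types in its piece of tissue.

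The study's methods give a direct cDNA kit for the pituitary gland and a PCR-cDNA barcoding kit for the MBH, while the labels give the PCR-cDNA kit for every library. If the methods hold, every pituitary gland library was made without amplification and every MBH library with it, and the kit and the tissue cannot be told apart in any value below. In tissue of mixed cells, fewer cells of a type and less RNA per cell cannot be told apart either.

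The anterior lobe of the pituitary gland holds endocrine cells that each make a hormone (growth hormone, prolactin, thyrotropin, the gonadotropins or the peptides cut from pro-opiomelanocortin), and the posterior lobe holds the endings of hypothalamic neurons and glia-like pituicytes. The MBH lies directly above it and holds the arcuate nucleus and the median eminence, with neurons that set appetite and release factors into the portal blood, and tanycytes that line the third ventricle and control local thyroid hormone. The pars tuberalis, a thin part of the pituitary gland that wraps the median eminence, makes thyrotropin under the control of melatonin and through it conveys photoperiod to the tanycytes. It lies between the 2 tissues compared here.

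Only isoforms listed in the tables of both tissues were used and were added up per gene, which gave 72732 isoforms of 16993 genes. These held 93.3% of the pituitary gland counts and 99.1% of the MBH counts. Values are in CPM, the count of a gene scaled to the total of its library, after leaving out Gm32262, which held between 8.55% and 66.0% of the counts of an MBH library, and Lars2, which held between 8.84% and 33.2% of those of a pituitary gland library. Library totals ran from 20950 to 360763 in the pituitary gland (median 58593) and from 4403 to 7096962 in the MBH (median 931070), and the MBH library was the deeper of the pair in 53 of 54 animals. A single count was worth 17.1 CPM in the median pituitary gland library and 1.07 CPM in the median MBH library. A listing at 0 in a pituitary gland library is therefore a weaker statement than in an MBH library. Over all libraries a count of 0 allowed up to 0.674 CPM in the pituitary gland and 0.0437 CPM in the MBH, for counting error only.

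The labelled tissues were checked against 4 defining genes. Gh, which encodes growth hormone, ran from 18520 to 141500 CPM in the pituitary gland (median 80660) and from 0 to 96.5 CPM in the MBH (median 0), where it was counted in 20 of 54 libraries. Prl, the prolactin gene, ran from 312 to 23300 CPM in the pituitary gland (median 3249) and from 0 to 454 CPM in the MBH (median 0). Pomc ran from 5946 to 33080 CPM in the pituitary gland (median 17930) and from 16.1 to 1136 CPM in the MBH (median 176.5). Agrp, which encodes an appetite-stimulating peptide of the arcuate nucleus, was counted in 53 of 54 MBH libraries (median 56.2, highest 257 CPM) and in 1 pituitary gland library, with 4 counts. Every one of the 54 animals had more Gh, Prl and Pomc in its pituitary gland than in its MBH, and 52 had more Agrp in the MBH. Of the others, an animal at 8 weeks of SP had 30.97 CPM of Agrp in the pituitary gland and 20.96 CPM in the MBH. An animal at 20 weeks had 0 in both, but its MBH library was the shallowest, with 4403 counts, so that 0 says little. The same library gave the highest MBH value of Pomc (1136 CPM), and the next was 586 CPM.

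The question across all genes was which transcripts differ between an endocrine gland and the hypothalamic region that controls it. Of 11758 genes tested with edgeR's quasi-likelihood F-test with the animal as a block, 1429 (12.2%) were higher in the pituitary gland and 6086 (51.8%) were higher in the MBH at a Benjamini-Hochberg adjusted p below 0.1. With a difference of at least 2-fold, 1093 (9.30%) were higher in the pituitary gland and 5434 (46.2%) in the MBH. Fold differences are given on the log2 scale as pituitary gland minus MBH, so positive values are higher in the pituitary gland, and their median over all genes was -0.96. This median has to be read beside every value below, and it moved with the processing, from -1.51 with size factors of DESeq2 in edgeR to -0.68 with 1 TMM factor per tissue and -0.26 in the DESeq2 Wald test. The share of the calls that were higher in the pituitary gland was 19.02% with library totals, 9.22% with size factors of DESeq2, 10.2% with TMM factors per library, 26.9% with 1 TMM factor per tissue and 29.99% in the DESeq2 Wald test. Under the 4 scalings in edgeR 821 genes were higher in the pituitary gland and 4928 higher in the MBH.

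When the deeper library of each pair was thinned to the depth of the other, 756 genes were higher in the pituitary gland and 3974 higher in the MBH, of 6213 tested, with a median log2 difference of -1.15. A gene was tested if it was counted in at least 27 libraries of either tissue, and 3019 genes reached this in both tissues. Of those, 689 were higher in the pituitary gland and 1453 in the MBH, with a median of -0.52. Another 8673 genes reached it in the MBH alone and 66 in the pituitary gland alone, and such genes entered the test through the tissue where they were counted most often.

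This bears on the gene lists below. The number of tested members counted in 27 libraries of both tissues was 0 of 17 for glutamate and GABA receptors, 0 of 11 for oligodendrocytes, 0 of 3 for releasing factors, 1 of 13 for neuropeptides, 1 of 11 for hypothalamic transcription factors, 1 of 11 for microglia and 2 of 12 for tanycytes. It was 4 of 15 for astrocytes, 11 of 22 for neurons, 3 of 8 for pituitary lineage factors and 4 of 7 for hormones. For the blood-brain barrier it was 2 of 8, for fenestrated endothelium 0 of 5 and for receptors of the pituitary gland 1 of 7. For thyroid hormone genes it was 1 of 5, for collagen and fibroblast genes 2 of 12 and for skeletal muscle 0 of 3. For these lists the counts and medians over tested members describe genes picked in part by the difference itself, and they are given as a description.

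**Figure D1:**
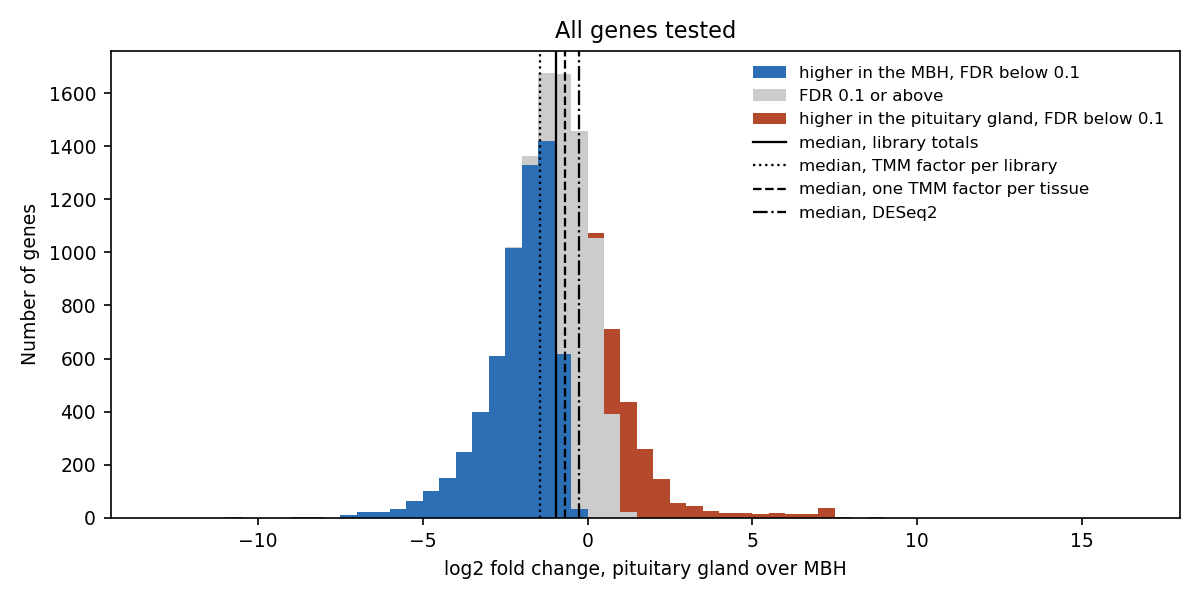
Histogram of the log2 fold change of the 11758 genes tested (x axis, pituitary gland over MBH) by number of genes (y axis), stacked and coloured by call at an FDR of 0.1, with vertical lines at the median under each scaling. Most of the genes lie below 0, and the median is -0.96 with library totals, -1.45 with TMM factors per library, -0.68 with 1 TMM factor per tissue and -0.26 with the DESeq2 test.

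Genes for the anterior pituitary hormones had the largest median difference among the gene lists. All 7 were higher in the pituitary gland, beside 12.2% of all genes. The 7 had a median log2 difference of 6.53 against -0.96 over all genes. The difference was 15.77 ± 0.59 (approximate SE computed back from the F-test, n = 54 pairs) for Gh (adjusted p = 3.95e-33) and 12.81 ± 0.50 for Prl (adjusted p = 2.97e-32). For Pomc, which the hypothalamus also expresses in its own neurons, it was smaller, at 6.53 ± 0.23 (adjusted p = 3.24e-34). The MBH and pituitary gland libraries did not overlap in Gh or Pomc, and in Prl they overlapped through the highest MBH library (454 CPM) alone reaching past the lowest pituitary gland library (312 CPM).

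The glycoprotein hormones share the alpha subunit Cga and differ in their beta subunits. Lhb, the beta subunit of luteinizing hormone, ran from 960 to 4107 CPM in the pituitary gland (median 2304) and from 0 to 323 CPM in the MBH (median 3.73), and the libraries did not overlap (8.72 ± 0.49, adjusted p = 4.52e-24). Fshb, the beta subunit of follicle-stimulating hormone, ran from 0 to 77.7 CPM in the pituitary gland (median 18.02) and from 0 to 4.11 CPM in the MBH, where 8 libraries held a count (5.73 ± 0.38, adjusted p = 1.66e-18). Cga ran from 440.5 to 5982 CPM in the pituitary gland (median 2424) and from 0 to 2178 CPM in the MBH (median 130.5), and it was higher in the pituitary gland in 54 of 54 animals although the libraries overlapped (4.35 ± 0.39, adjusted p = 6.03e-15). Tshb, the beta subunit of thyrotropin, overlapped the most. It ran from 0 to 1003 CPM in the pituitary gland (median 170) and from 0 to 1002 CPM in the MBH (median 5.01), and was higher in the pituitary gland in 41 animals and in the MBH in 12 (4.63 ± 0.71, adjusted p = 9.59e-08).

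**Figure D2:**
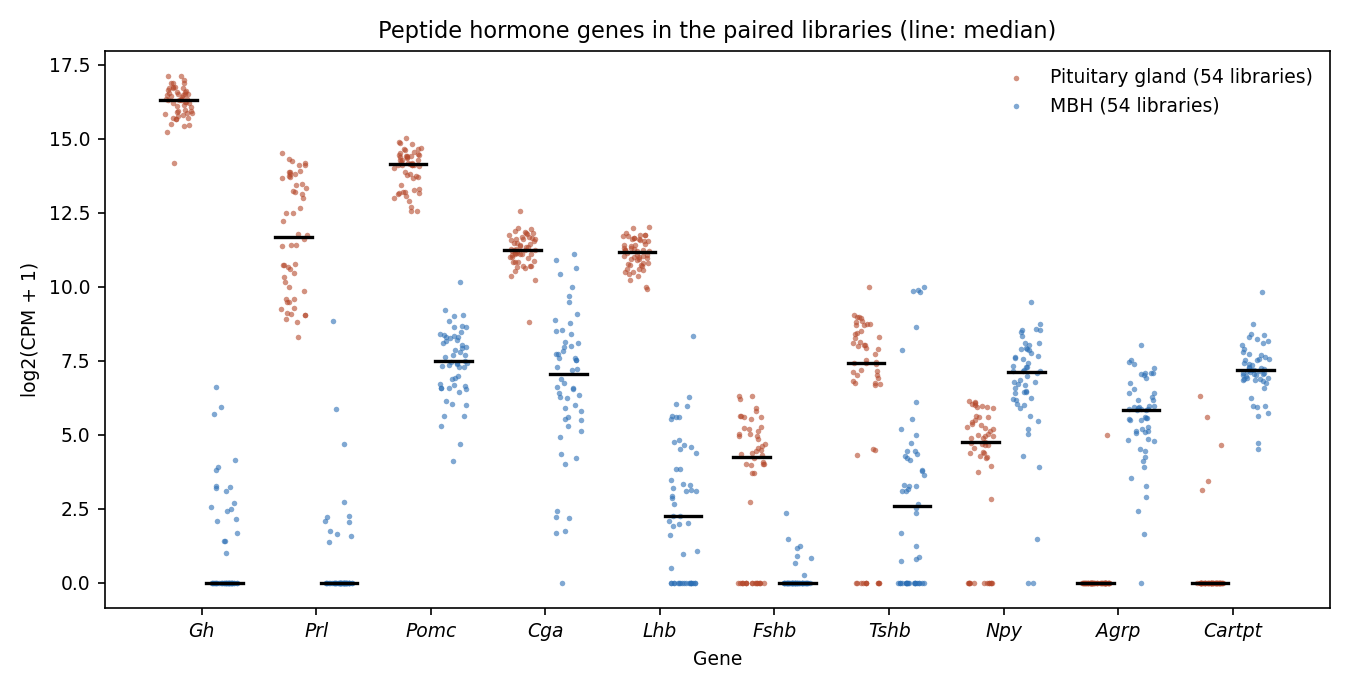
Peptide hormone genes (x axis) in log2(CPM + 1) (y axis) in the 54 pituitary gland and 54 MBH libraries, with 1 point per library and a line at each median. Gh, Pomc and Lhb separate the tissues in every library, Cga and Tshb overlap, and Npy, Agrp and Cartpt have the higher median in the MBH.

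Transcription factors that set up the pituitary cell lineages were mostly higher in the gland, where 6 of the 8 tested passed and 2 were higher in the MBH (median 3.33). Beside these counts, 12.2% of all genes were higher in the gland and 51.8% in the MBH. Pitx1, which acts early in the formation of the gland, was counted in 29 pituitary gland libraries and 4 MBH libraries (6.14 ± 0.41, adjusted p = 3.33e-16). Lhx3 (4.30 ± 0.53), Gata2 of thyrotropes and gonadotropes (3.63 ± 0.44) and Six6 (3.04 ± 0.31) were also higher in the gland. Isl1, which arcuate neurons use as well, was higher in the MBH (-2.25 ± 0.36, adjusted p = 8.14e-07). Lhx4 was higher in the MBH with only 2 counts in the pituitary gland, a ratio of 6.07 (95% counting interval 1.66 to 50.5), and it turned direction in the DESeq2 Wald test. Pou1f1, the factor of the growth hormone, prolactin and thyrotropin cells, was listed for the pituitary gland alone, with 121 counts in 38 libraries, and was not tested.

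Of the receptors through which hypothalamic and steroid signals reach the gland, 7 were tested, 2 were higher in the pituitary gland, 2 in the MBH and 3 did not pass. Beside these counts, 12.2% of all genes were higher in the pituitary gland and 51.8% in the MBH. The list's median was -0.24, but 0.05 with 1 TMM factor per tissue, 1.45 with thinned libraries, where fewer members were tested, and 0.80 in the DESeq2 Wald test. Drd2, the dopamine receptor that restrains prolactin release, was counted in 32 pituitary gland and 19 MBH libraries (4.21 ± 0.47, adjusted p = 1.08e-10). Esr1, the estrogen receptor alpha, had a median of 0 CPM in the pituitary gland and 1.02 CPM in the MBH, with a highest value of 220 and 28.7 CPM, and its fitted difference was 3.27 ± 0.57 (adjusted p = 2.55e-06). Trhr and Tshr, the receptors for thyrotropin-releasing hormone and thyrotropin, had 1 count each in the pituitary gland. Their MBH to pituitary gland ratios were 9.67 (1.71 to 384) and 10.7 (1.90 to 425). In the DESeq2 Wald test Trhr, Tshr and Sstr2, the other receptor called higher in the MBH, turned direction (0.80, 0.78 and 0.88). Nr3c1, the glucocorticoid receptor, had a median of 71.7 CPM in the pituitary gland and 69.1 CPM in the MBH (-0.01 ± 0.37, adjusted p = 0.982). Ghrhr, the receptor for growth hormone-releasing hormone, was listed for the pituitary gland alone, with 62 counts in 33 libraries.

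Granins and prohormone processing enzymes, which package and cut peptide hormones in both tissues, divided. Of 13 genes, 8 were higher in the pituitary gland, 2 in the MBH and 3 did not pass, with a median of 0.49 (-0.03 with TMM factors per library). Beside these counts, 12.2% of all genes were higher in the pituitary gland and 51.8% in the MBH. Chgb, a granin of secretory granules, ran from 334 to 1091 CPM in the pituitary gland (median 674) and from 0 to 77.0 CPM in the MBH (median 37.4). Its libraries did not overlap (4.23 ± 0.17, adjusted p = 3.95e-31). Chga (2.72 ± 0.25), Scg2 (1.95 ± 0.15) and Resp18 (1.52 ± 0.13) were also higher in the gland. Cpe, the carboxypeptidase that trims cut peptides, went the other way and was higher in the MBH in 53 of 54 animals (-2.05 ± 0.20, adjusted p = 6.04e-14), with a median of 53.04 CPM in the pituitary gland and 212 CPM in the MBH. Vgf passed in the MBH direction (-1.36 ± 0.61, adjusted p = 0.0488), but its difference was 0.35 when the highest isoform was used and 0.20 without the replicate block.

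Genes for protein folding and translocation in the endoplasmic reticulum, the entry of the secretory pathway, had a median of 0.09 (-0.49 with TMM factors per library), and all 28 lay above the median of all genes. Of these, 9 were higher in the pituitary gland, 6 in the MBH and 13 did not pass, beside 12.2% and 51.8% of all genes. The folding enzymes Pdia3 (1.51 ± 0.15, adjusted p = 5.67e-14) and P4hb (1.56 ± 0.19) and the chaperone partners Sdf2l1 (2.16 ± 0.30) and Dnajc3 (1.73 ± 0.26) were among those higher in the gland. Pdia3 ran from 37.2 to 307 CPM in the pituitary gland (median 141.1) and from 0 to 101.5 CPM in the MBH (median 47.2). The signal peptidase subunits Spcs1 (-0.95 ± 0.17) and Spcs2 (-0.74 ± 0.22) and the translocon subunit Sec61g (-0.78 ± 0.22) were among those higher in the MBH. All 28 genes were counted in at least 27 libraries of both tissues. The median of that class of genes was -0.52, and Spcs1, Spcs2 and Sec61g were among those below it.

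The genes of hypothalamic signals were higher in the MBH wherever they passed. Of 13 neuropeptide genes tested, 12 were higher in the MBH, beside 51.8% of all genes, and Nmb did not pass (-1.09 ± 0.45, adjusted p = 0.103). The 13 had a median of -3.65. Agrp had the largest of these differences (-6.96 ± 0.34, adjusted p = 1.01e-26). Cartpt, a peptide of arcuate neurons that restrains feeding, ran from 0 to 78.6 CPM in the pituitary gland (median 0) and from 21.5 to 908.5 CPM in the MBH (median 142.5) and was higher in the MBH in 54 of 54 animals (-6.63 ± 0.35, adjusted p = 1.22e-25). Its highest MBH value came from the shallowest MBH library, and the next was 421 CPM. Galanin (Gal) differed by -5.56 ± 0.31 (adjusted p = 4.26e-24). Npy, which arcuate neurons make together with Agrp, was less separated. It ran from 0 to 69.3 CPM in the pituitary gland (median 25.7) and from 0 to 707 CPM in the MBH (median 137), and was higher in the MBH in 48 animals (-2.27 ± 0.33, adjusted p = 1.79e-08). Avp, the vasopressin gene, was counted in 11 pituitary gland and 48 MBH libraries (-2.04 ± 0.46, adjusted p = 1.26e-04). Sst was listed for the MBH alone and was not tested.

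The remaining releasing and inhibiting factors tested were the dopamine-synthesis genes. With Avp, all 3 tested members of that list were higher in the MBH, beside 51.8% of all genes. The list had a median of -3.39, but -0.90 in the DESeq2 Wald test. Ddc, which makes dopamine from L-DOPA, was higher in the MBH (-3.39 ± 0.36, adjusted p = 5.12e-12). Th, the rate-limiting enzyme of that path, had 1 count in the pituitary gland and a ratio of 23.4 (4.17 to 925) in favour of the MBH. Of 11 hypothalamic transcription factors tested, 7 were higher in the MBH and 2 did not pass, beside 51.8% of all genes higher in the MBH. Their median was -1.67, but 1.22 with thinned libraries, where fewer members were tested, and 0.74 in the DESeq2 Wald test, so the list had no stable direction. Six3 (0.92 ± 0.34, adjusted p = 0.0160) and Foxp2 (1.47 ± 0.48, adjusted p = 0.00690) were higher in the pituitary gland. Six3 is also known to act in the formation of the gland. A list of 12 genes was taken from those the study names, some from results on these samples and some from earlier work. Of these, 8 were tested, 4 were higher in the pituitary gland, 3 in the MBH and 1 did not pass (median 2.30). Beside these counts, 12.2% of all genes were higher in the pituitary gland and 51.8% in the MBH.

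Of 22 neuron genes, 20 were higher in the MBH, beside 51.8% of all genes, and 2 did not pass, with a median of -2.56. Their summed level ran from 212.6 to 2908 CPM in the pituitary gland and from 1115 to 12220 CPM in the MBH, and no animal had more in its pituitary gland. Mapt, which encodes the axonal protein tau, was counted in 13 pituitary gland libraries and had a median of 652 CPM in the MBH (-6.72 ± 0.43, adjusted p = 2.46e-21). Gap43, a protein of growing axon endings, ran from 0 to 23.9 CPM in the pituitary gland and from 28.5 to 307 CPM in the MBH, with no overlap (-5.43 ± 0.33, adjusted p = 2.16e-22). Map2 of dendrites (-4.12 ± 0.43) and Uchl1 (-3.51 ± 0.21) were also higher in the MBH. Snap25, which both neurons and endocrine cells use to fuse vesicles, had a median of 358 CPM in the pituitary gland and 302 CPM in the MBH (0.01 ± 0.23, adjusted p = 0.973). Among 17 glutamate and GABA receptor genes, 14 were higher in the MBH, beside 51.8% of all genes, and 3 did not pass (median -3.58). Gria4 (-5.08 ± 0.38), Gria1 (-4.38 ± 0.36) and Grin2b (-4.36 ± 0.37) were among the 14.

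All 15 astrocyte genes tested were higher in the MBH, beside 51.8% of all genes. The 15 had a median of -4.16 and a summed level of 78.4 to 791 CPM in the pituitary gland against 669 to 7662 CPM in the MBH. Slc1a2, the main glutamate transporter of astrocytes, was counted in 5 pituitary gland libraries and had a median of 311 CPM in the MBH (-7.74 ± 0.32, adjusted p = 2.56e-30). Agt (-6.96 ± 0.31), Sparcl1 (-6.16 ± 0.37) and S100b (-5.44 ± 0.33) followed. Mt3, a metallothionein of the brain, ran from 0 to 94.4 CPM in the pituitary gland and from 96.6 to 713 CPM in the MBH, with no overlap (-4.16 ± 0.25, adjusted p = 1.28e-22). The astrocyte water channel Aqp4 was listed for the MBH alone. Of 11 oligodendrocyte genes, 8 were higher in the MBH, beside 51.8% of all genes, and 3 did not pass (median -2.52, but 0.01 in the DESeq2 Wald test). The myelin gene Cnp (-4.24 ± 0.36) was among the 8, as were Mobp and Mbp, whose differences of -7.29 ± 0.41 and -6.73 ± 0.51 were -4.78 and -4.43 when the highest isoform was used. Mbp was counted in 13 pituitary gland libraries and reached 595 CPM in the highest.

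All 11 microglia genes were higher in the MBH, beside 51.8% of all genes. The 11 had a median of -2.47, and -0.65 in the DESeq2 Wald test. In that test P2ry12 and Trem2, with 1 pituitary gland count each, turned to 0.21 and 0.20. Among the 11 were the lysosomal protease Ctss (-4.14 ± 0.36, adjusted p = 1.52e-15) and Aif1 (-3.58 ± 0.35). Of 12 tanycyte and ependymal genes, 8 were higher in the MBH and 4 did not pass (median -1.52), beside 51.8% of all genes higher in the MBH. Vim, the intermediate filament of tanycytes, was higher in the MBH in 50 animals (-2.90 ± 0.30, adjusted p = 1.31e-12). Gpr50, an orphan receptor of tanycytes that is related to the melatonin receptors, was counted in 4 pituitary gland and 49 MBH libraries (-3.64 ± 0.41, adjusted p = 2.19e-11). Dio2, the enzyme that makes active thyroid hormone, had a median of 0 CPM in the pituitary gland and 2.40 CPM in the MBH, was higher in the MBH in 39 animals, and had a fitted difference of -0.03 ± 0.47 (adjusted p = 0.970). Of 5 genes of thyroid hormone transport, conversion and reception tested, 3 were higher in the MBH with a median of -0.94 (0.15 in the DESeq2 Wald test), close to the 51.8% and -0.96 of all genes. They included the receptor Thrb (-2.04 ± 0.63, adjusted p = 0.00438), and Thra did not pass (0.02 ± 0.25, adjusted p = 0.962).

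The vessels of the brain are sealed and those of the gland are fenestrated, and the endothelial lists were tested separately. Of 8 genes of the blood-brain barrier, 6 were higher in the MBH and 2 did not pass (median -1.66, and -0.40 in the DESeq2 Wald test), beside 51.8% of all genes higher in the MBH. Among the 6 was the tight junction gene Cldn5, with 2 counts in the pituitary gland and a ratio of 18.8 (5.18 to 155.5). Of 5 genes of fenestrated endothelium, 2 were higher in the pituitary gland, 1 in the MBH and 2 did not pass (median -0.54, but 1.56 in the DESeq2 Wald test), beside 12.2% of all genes higher in the pituitary gland. Plvap, which forms the diaphragm across the pores, was counted in 20 pituitary gland and 32 MBH libraries and was higher in the pituitary gland in 20 animals and in the MBH in 19 (2.11 ± 0.40, adjusted p = 1.26e-05), and Eng differed by 1.24 ± 0.48 (adjusted p = 0.0242).

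Of 9 genes of folliculostellate and pituitary stem cells, 4 were higher in the pituitary gland, 3 in the MBH and 2 did not pass (median 0.25, and -0.26 with TMM factors per library). Beside these counts, 12.2% of all genes were higher in the pituitary gland and 51.8% in the MBH. Epcam, an adhesion gene of epithelia, ran from 0 to 80.5 CPM in the pituitary gland (median 24.6) and from 0 to 3.42 CPM in the MBH (4.94 ± 0.36, adjusted p = 9.79e-19), and Krt18, a keratin, differed by 2.55 ± 0.33. Aldh1a2 was higher in the gland (2.38 ± 0.46) and Aldh1a1 in the MBH (-2.10 ± 0.48), although both make retinoic acid. Of 6 genes linked to the pars tuberalis, 4 were higher in the pituitary gland, beside 12.2% of all genes. Among the 4 were Cga and Tshb, counted with the hormones above, and the clock gene Per1 (2.48 ± 0.49). Eya3, which activates Tshb in the pars tuberalis, was higher in the MBH (-1.70 ± 0.44, adjusted p = 0.00436), and the clock gene Cry1 did not pass (0.80 ± 0.53, adjusted p = 0.192).

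Lists of other tissue that a dissection can carry gave no single direction. Beside them, 12.2% of all genes were higher in the pituitary gland and 51.8% in the MBH. Of 12 collagen and fibroblast genes, 2 were higher in the pituitary gland (Igfbp5 by 2.06 ± 0.25 and Bgn by 1.78 ± 0.40), 4 in the MBH and 6 did not pass (median 0.05, -0.44 with TMM factors per library and 1.14 in the DESeq2 Wald test). Sparc, a matrix protein that brain glia and vessels also make, ran from 0 to 106 CPM in the pituitary gland and from 152.6 to 3065 CPM in the MBH, with no overlap (-6.52 ± 0.33, adjusted p = 2.89e-26). Of 5 red blood cell genes, 2 were higher in the MBH and 3 did not pass (median -0.15, and 0.14 with 1 TMM factor per tissue), and their summed level ran from 176 to 1865 CPM in the pituitary gland and from 256 to 3634 CPM in the MBH. Of 3 skeletal muscle genes tested, 1 was higher in the MBH, and the median summed level of the list was 0 CPM in the pituitary gland and 10.8 CPM in the MBH.

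**Figure D3:**
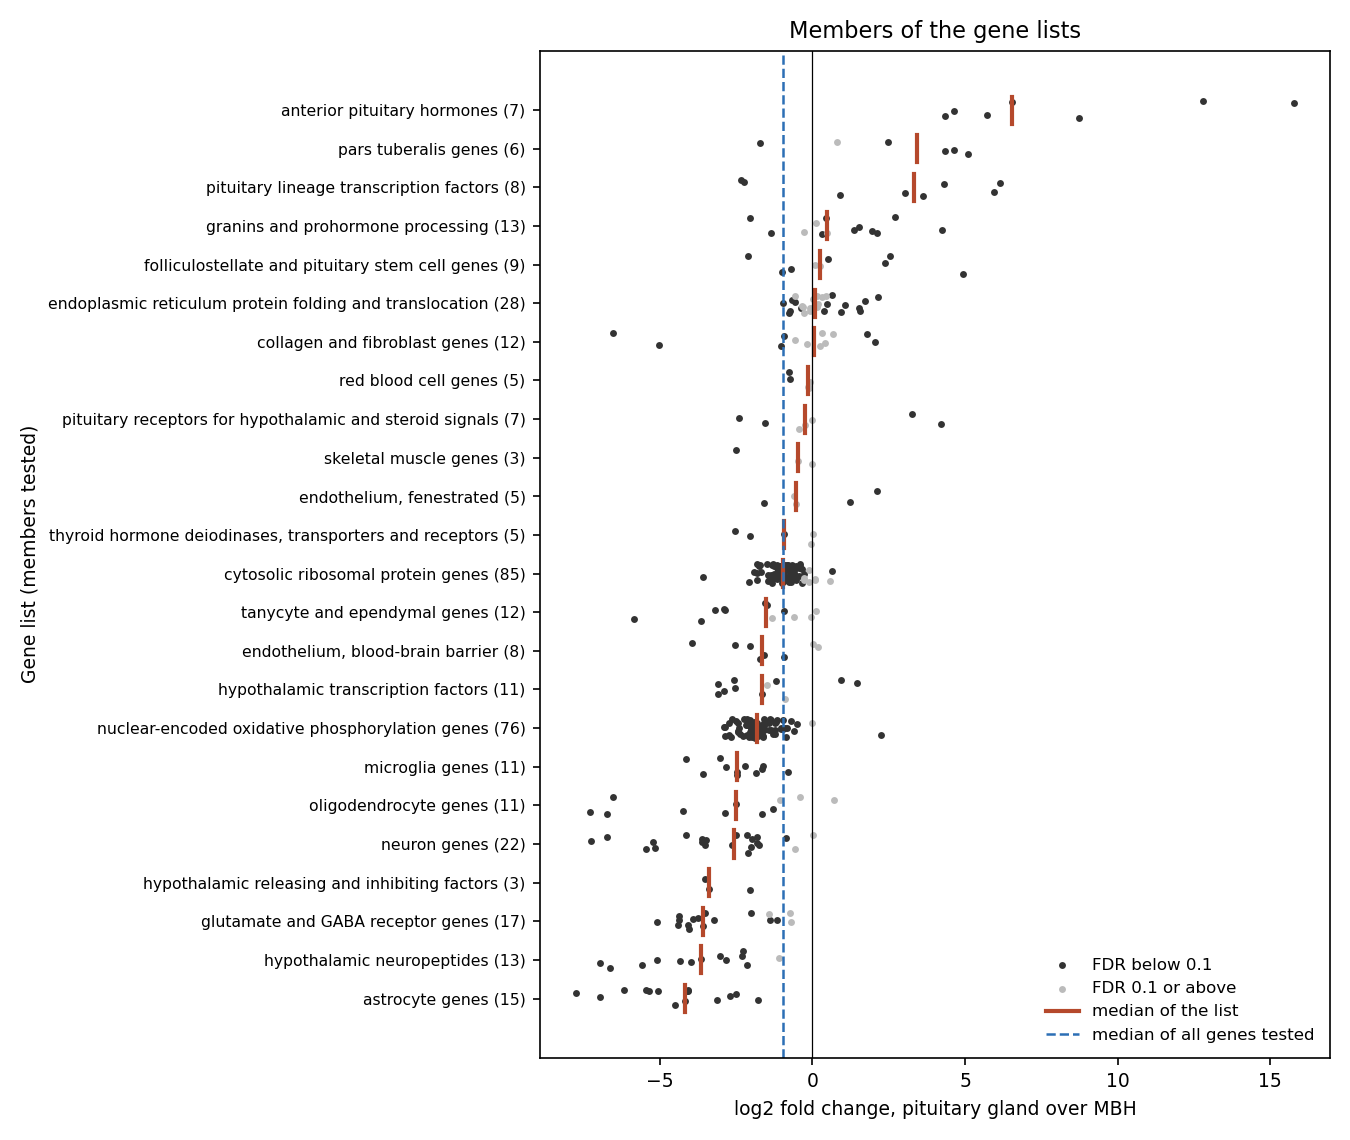
Log2 fold change (x axis, pituitary gland over MBH) of each tested member of the gene lists (y axis, number tested in brackets), dark at an FDR below 0.1 and grey otherwise, with a red line at the median of each list and a dashed line at the median of all genes. The 7 hormone genes lie above 0, the 15 astrocyte and 11 microglia genes lie below 0, and the 28 endoplasmic reticulum genes lie to the right of the dashed line.

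Genes that every cell uses were also tested. Beside 51.8% of all genes, 77 of 85 cytosolic ribosomal protein genes were higher in the MBH, 1 in the pituitary gland and 7 did not pass. Their median was -0.98, beside -0.96 over all genes, and 41 of the 85 lay above the median of all genes. Of the 85, 84 were counted in at least 27 libraries of both tissues, and the median of that class of genes was -0.52. The exception, Rps19, was higher in the gland by 0.63 ± 0.16 (adjusted p = 5.13e-04), but its difference was -0.04 with size factors of DESeq2 and -0.48 with the highest isoform. Of 76 nuclear-encoded genes of oxidative phosphorylation, 74 were higher in the MBH, 1 in the pituitary gland and 1 did not pass, with a median of -1.80, and 8 of the 76 lay above the median of all genes. Of the 76, 70 belonged to the class counted in both tissues. Ndufs6 (-2.88 ± 0.29) and Atp5md (-2.85 ± 0.18, adjusted p = 3.19e-22), which belong to complex I and the ATP synthase, were among the furthest, and Ndufs4 of complex I was the exception (2.24 ± 0.28, adjusted p = 3.75e-10).

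Genes without a known endocrine or neural role were also far apart. Since hamster reads were counted on mouse annotation, what transcripts the counts of such genes stand for was not checked. The 54 and 54 libraries did not overlap in 43 genes (0.366% of those tested), 23 higher in the pituitary gland and 20 in the MBH. Beside Gh, Pomc, Lhb and Chgb, the 23 held Gnas, which encodes the stimulatory G protein that some releasing-hormone receptors use, and Rn7sk, a small nuclear RNA that restrains transcription elongation. They also held predicted genes and loci without a given function. Gm46178 ran from 46070 to 292800 CPM in the pituitary gland and from 44.3 to 11810 CPM in the MBH (8.84 ± 0.22), and LOC118567838 ran from 79630 to 315600 CPM and from 0 to 97.3 CPM (11.95 ± 0.19). The 20 higher in the MBH held Gap43, Sparc, Mt3, the brain cytoplasmic RNA Bc1, the prostaglandin D synthase Ptgds, the acyl-CoA binding protein Dbi and the synaptic anchoring protein Akap5.

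The largest difference toward the MBH was in Iho1, known for its part in meiosis, which ran from 938 to 57910 CPM in the MBH (median 19080) and from 0 to 125 CPM in the pituitary gland, where 8 libraries held a count (-12.63 ± 0.37). Timm22 of mitochondrial protein import (-11.28 ± 0.34), 2810433D01Rik (-10.92), the kinesin Kif3a (-10.67 ± 0.45), the riboflavin transporter Slc52a2 (-10.39 ± 0.39) and the peroxisomal Pex13 (-9.95 ± 0.30) followed and also did not overlap. The 10 genes furthest toward the pituitary gland held between 32.1% and 63.9% of the counts of a pituitary gland library (median 45.2%) and between 0.0114% and 1.45% of those of an MBH library. The 10 furthest toward the MBH held between 1.14% and 23.8% of the counts of an MBH library (median 7.92%) and at most 0.0637% of those of a pituitary gland library. These 20 genes were chosen by their difference, so their shares are a description, and whether the kit takes part in them cannot be told apart from the tissue.

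The groups allow the question whether the difference between the tissues is the same in LP and at every SP week. In a test of 8 interaction terms over all genes, 1 gene of 11758 (0.00850%) passed, which was Tshb (adjusted p = 0.0377), while 307 genes had an unadjusted p below 0.05. The pituitary gland and MBH values of Tshb crossed. In LP the MBH held 229 to 1002 CPM of Tshb (730 ± 330, SD, n = 6), and the pituitary gland held 0 CPM in 3 libraries and 18.9, 127 and 1003 CPM in the others (191 ± 401). The MBH value was the higher of the pair in 5 of 6 LP animals.

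After the move to SP, MBH Tshb was 14.2 ± 8.81 CPM after 4 weeks, between 1.04 ± 1.73 and 2.89 ± 4.50 CPM from 8 to 20 weeks, and 10.3 ± 12.0, 22.7 ± 24.8 and 16.3 ± 16.5 CPM after 24, 28 and 32 weeks. At each of the 8 SP weeks every MBH library lay below every LP library (2-sided exact permutation test, p = 0.00216, the smallest that 6 against 6 allow, 0.0381 after Benjamini-Hochberg adjustment over all such tests of the named genes). Group means of pituitary gland Tshb lay between 120 and 296 CPM in SP, and the exact p against LP ran from 0.617 to 0.963. From 4 to 32 weeks, the pituitary gland was higher in 3, 5, 5, 6, 5, 6, 6 and 4 of the 6 animals of each group.

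The log2 difference of Tshb, pituitary gland minus MBH, was -4.21 ± 1.51 in LP (adjusted p = 0.0542) and 2.19 ± 1.54 after 4 weeks of SP, which did not pass (adjusted p = 0.386). It was 7.44 ± 1.65 after 8, 8.24 ± 1.61 after 12 and 7.41 ± 1.43 after 16 weeks. After 32 weeks it was 3.09 ± 1.45, which did not pass (adjusted p = 0.146). Against LP the difference had moved by 11.65 ± 2.21 at 8 weeks (adjusted p = 0.0233), 12.45 ± 2.15 at 12 weeks (adjusted p = 0.00360) and 11.62 ± 2.03 at 16 weeks (adjusted p = 0.00451), and in each of these contrasts Tshb was the 1 gene called (0.00850% of genes). The change did not pass at the other weeks, with an adjusted p of 0.114 at 20 weeks and 0.157 at 24 weeks. The call over the 9 groups was lost when replicate 1, 2, 3 or 5 of every group was left out (adjusted p = 1, 0.121, 0.469 and 0.588), with TMM factors per library (adjusted p = 0.127) and with size factors of DESeq2 (adjusted p = 0.151).

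**Figure D4:**
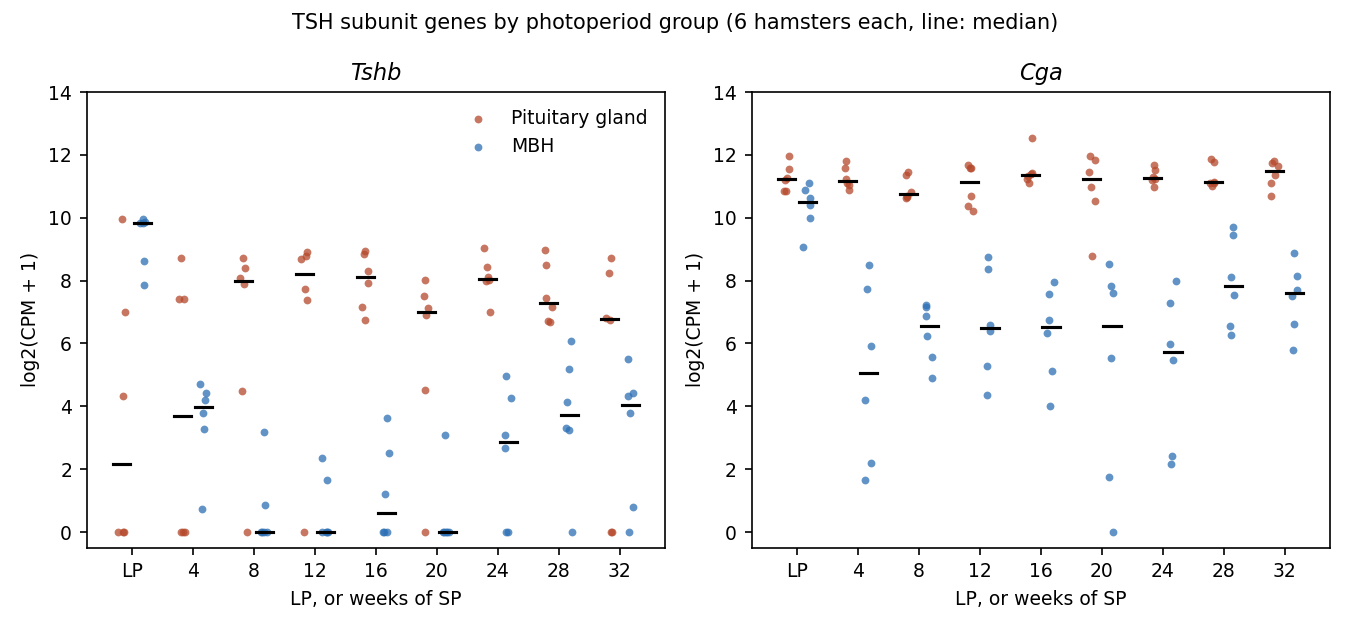
Tshb and Cga in log2(CPM + 1) (y axis) in LP and after each number of weeks in SP (x axis), with 1 point per library (n = 6 per group and tissue) and a line at each median. The MBH medians of both genes are highest in LP, and the pituitary gland values of Cga stay above the MBH values of the same animals in every group.

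Cga, the partner subunit, was named here after its values had been seen. In the MBH it stood at 1428 ± 593 CPM in LP, between 541 and 2178 CPM in single libraries, and its group means in SP lay between 87.0 and 360 CPM. At every SP week but the 28th every MBH library lay below every LP library (exact permutation p = 0.00216, adjusted 0.0381), and at 28 weeks the exact p was 0.00649 (adjusted 0.0994). In the pituitary gland, group means ran from 2016 to 3095 CPM with an exact p of at least 0.191 against LP. The difference between the tissues was 0.89 ± 0.85 in LP and lay between 3.46 and 6.26 in SP, but the interaction did not pass over all genes (adjusted p = 1).

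Other pituitary hormone genes were read in the same MBH libraries, and of these Pomc is also expressed by hypothalamic neurons. In LP the MBH held 3.22 ± 5.64 CPM of Gh, 4.49 ± 9.91 CPM of Prl, 67.0 ± 127 CPM of Lhb and 300 ± 96.0 CPM of Pomc, and at every SP week the MBH libraries overlapped those of LP in these 4 genes. The share of carried-over pituitary tissue in an MBH punch was not tested. The melatonin receptor gene Mtnr1a, a marker of the pars tuberalis, had 3 counts in the pituitary gland and 9 in the MBH in all, and was not tested.

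Pituitary gland Prl was 17780 ± 4318 CPM in LP and 652 ± 164 CPM after 8 weeks of SP, while the interaction for Prl had an adjusted p of 1. Gh, Pomc, Agrp and Npy also had an adjusted p of 1. For Prl, Gh and Agrp, which were at or near 0 in a tissue, the change of the difference could hardly be estimated, and this p says nothing about its stability. The tissue difference within each of the 9 groups (6 pairs) was read from a single fit over all libraries, so the groups share its gene filter and dispersion estimates. By group, between 262 and 396 genes were higher in the pituitary gland and between 506 and 2144 in the MBH, with group medians of all genes from -0.81 to -1.67. The fewest in both directions were at 20 weeks of SP, the group that holds the shallowest MBH library (4403 counts).

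The dorsomedial hypothalamus (DMH) of the same animals was set beside the MBH for the named genes. That comparison uses the same pituitary gland libraries, tested 7664 genes and had a median log2 difference of 1.46, so its scale is shifted from that of the MBH. Cga differed by 12.75 ± 0.27 against the DMH and 4.35 ± 0.39 against the MBH, Tshb by 7.58 ± 0.60 and 4.63 ± 0.71, and Pomc by 11.99 ± 0.52 and 6.53 ± 0.23. Npy was 5.58 ± 0.45 against the DMH and -2.27 ± 0.33 against the MBH, and Cpe was 0.51 ± 0.47 and -2.05 ± 0.20. Mbp was -6.76 ± 0.70 against the DMH and -6.73 ± 0.51 against the MBH, and Slc1a2 was -6.07 ± 0.59 and -7.74 ± 0.32.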

How the data were processed

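Expected counts per isoform (estimated by the authors with Salmon from reads aligned with Minimap2 to the mouse genome and deposited without normalization after their filter on low counts) were used as deposited, with 1 table per tissue. Hamster reads were thus counted on mouse annotation. Shared isoforms were added per gene symbol and rounded, Gm32262 and Lars2 were left out, and 0 columns were left unmapped. No sequences are printed because no reference was used here.

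Genes counted in at least 27 libraries of a tissue were tested in edgeR 4.0.16 under R 4.3.3 (its quasi-likelihood F-test, as edgeR 3 had it) with animal and tissue as terms, and with 8 tissue by group terms for the interaction. The threshold was a Benjamini-Hochberg FDR of 0.1. The plan named TMM factors per library. On simulated counts, where most genes had the same mean in both tissues, these factors shifted the fold differences of those genes. Library totals therefore replaced them, a choice made after the data were seen, and TMM is an alternative. The simulated means were set from the library totals, so totals fitted by construction. The simulation could therefore not decide which scaling is right for the real counts. It also did not copy the real difference between the tissues in which genes take most of the counts. Exact permutation tests compared mean CPM of 6 against 6 libraries, 2-sided. Ratios for genes with 1 to 3 pituitary gland counts have exact 95% intervals for counting error. Fold differences of genes with few counts depend on a prior count of 0.125. The SE of every log2 difference is its size divided by the square root of its F statistic. It is an approximation, and it is unreliable where a tissue is near 0.

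Samples were paired by animal. The pairing comes from the animal number in the column headings, and deviations of the same animal correlated across 3019 genes with a median r of -0.0131 (1 of 54 pairs above 0.1), beside 0.00203 between animals of a group. Libraries are separate animals, and 0 pairs of libraries were identical.

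Alternatives were other scalings (size factors of DESeq2 1.42.0, TMM per library or per tissue), the DESeq2 Wald test, filterByExpr, no filter, thinned libraries, the highest or only isoform, no replicate block, shallow libraries left out, and each replicate number left out. Named genes were Gh, Prl, Pomc and Agrp, the 10 furthest in each direction, up to 4 called members of each list per direction with defining or uncalled members, the 10 with the smallest interaction p, and genes the study named. Other genes named were chosen after their values were seen. The members and lists were chosen with earlier results of these data known. The deposited DMH table was used for side values, the PVN table was not used. Some members of the lists are not reported here by name.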

Additional observations from a re-analysis of the deposited data

Results flagged for a closer look

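The tissue difference of Tshb changed over the 9 photoperiod groups (adjusted p = 0.0377, edgeR interaction test), with the MBH higher in 5 of 6 LP animals and the pituitary gland higher in 3 to 6 of 6 animals at each SP week. The call was lost with TMM factors per library (adjusted p = 0.127), with size factors of DESeq2 (adjusted p = 0.151) and without replicate 1, 2, 3 or 5 (adjusted p = 1, 0.121, 0.469 and 0.588).

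A single library stood apart from the other 5 of its group by Dixon's criterion in 9 of 81 groups of 6. The usual chance rate of about 1 in 20 holds for normally distributed values, and these CPM were skewed and often 0. The count of flags therefore cannot be set against chance. Only some of the named genes were screened, and MBH Prl, with a library of 454 CPM at 28 weeks, was not. For Tshb these were a pituitary gland library of 1003 CPM in LP and MBH libraries of 8.04 CPM after 8 weeks and 7.5 CPM after 20 weeks of SP. For Pomc they were a pituitary gland library of 7653 CPM after 24 weeks and MBH libraries of 313 CPM after 12 and 586 CPM after 32 weeks. For Agrp they were MBH libraries of 180.9 CPM after 16 and 257 CPM after 28 weeks. For Cga it was a pituitary gland library of 5982 CPM after 16 weeks.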

How the results depend on the processing

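Of 134 named genes tested, 98 kept their direction and their side of the threshold under each alternative in which they were tested (59 genes were tested with filterByExpr), and of 2609 values under the alternatives 2464 did so, 112 no longer passed, 11 passed only then and 22 changed direction. The genes higher in the pituitary gland made up 12.2% of 11758 tested, 7.603% with TMM factors per library, 6.98% with size factors of DESeq2, 18.01% of all 16991 genes without a filter on low counts (3059 genes), 10.4% of 2297 with filterByExpr, 12.2% of 6213 with thinned libraries and 13.4% of 3580 with 1 shared isoform. In these last 3 settings fewer genes were tested, and 73.8%, 64.0% and 61.1% of them were higher in the MBH (1696, 3974 and 2188 genes, beside 6086 of 11758). Leaving out each replicate number gave 10.2% to 12.3% higher in the pituitary gland and 47.8% to 51.7% higher in the MBH. The groups, with 6 pairs each, were read from a single fit over all libraries with a tissue term per group. In LP and after 4 to 32 weeks of SP, 2.40%, 3.29%, 3.13%, 3.26%, 3.37%, 2.23%, 2.42%, 3.10% and 3.07% were higher in the pituitary gland and 17.9%, 10.9%, 7.47%, 13.3%, 10.2%, 4.30%, 18.2%, 10.6% and 16.8% higher in the MBH. Without the replicate block, which drops the pairing by animal, 19.1% (2244 genes) were higher in the pituitary gland and 787 genes changed in tissue difference over the groups, where Tshb ranked number 3 by p (adjusted p = 0.00517).

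The test over the groups called 0 genes with TMM factors per library (190 at an unadjusted p below 0.05) and 0 with size factors of DESeq2 (177 at an unadjusted p below 0.05), 82 without a filter, 4 with the highest isoform, and 0 to 1 with a replicate number left out. The call of Tshb was lost without replicate 1, 2, 3 or 5 and kept without replicate 4 or 6 (adjusted p = 0.0633 and 0.0906). Apart from the fit without the block, Tshb had the smallest p in each alternative run for this test, which did not include the DESeq2 Wald test, genes with 1 shared isoform, or totals without Gh, Prl and Pomc.

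With the DESeq2 Wald test, the log2 difference changed direction for Abcg2 (0.025), Ccdc153 (0.16), Fezf1 (0.025), Flt1 (1.63), Lhx4 (0.12), Mb (0.52), Mfsd2a (1.54), P2ry12 (0.21), Prrx1 (1.11), Sox14 (0.51), Sstr2 (0.88), Trem2 (0.20), Trhr (0.80) and Tshr (0.78). It also did for Csnk1g1 without the block (0.15), Krt8 with TMM factors per library (-0.00027) and size factors of DESeq2 (-0.067), Rps19 with size factors (-0.038) and the highest isoform (-0.48), Tmem125 with the highest isoform (1.03), and Vgf with the highest isoform (0.35) and without the block (0.20). The cause was not tested. Depth limits the pituitary gland, where 1 count in the median library is 17.1 CPM.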
